A study of Mus musculus with 931 samples.

Results

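This comparison set single pancreatic β cells of 60-day-old mice (P60) against those of mice near weaning, at postnatal days 15 and 18 (P15 and P18). The members were the cells of those stages that carry a column in the single-cell count table and are labelled with 1 hormone. There were 257 of the 917 cells in that table, 129 at P60 and 128 near weaning, and 4 cells of the same batches that are labelled with several hormones were left out. All of them came from Ins1-RFP mice, in which a red fluorescent reporter marks cells that use the insulin gene Ins1, on a mixed background of the C57BL/6 and C3H strains. No treatment is named, and the reporter is shared by both groups. The replicate was the labelled batch. The 5 batches at P60 held 39, 14, 29, 26 and 21 cells, the 3 batches at P15 held 20, 27 and 10, and the 3 at P18 held 31, 35 and 5. Cells were sorted by fluorescence (FACS) in batches 1 and 5 of P60, batch 3 of P15 and batches 1 and 2 of P18, and were picked by hand in the other 6 batches. The labels tie no batch to an animal, so p-values measure the spread between these batches, which may be technical. The wider study followed β and α cells from E17.5 to P60, and asked how the 2 cell types mature. The question here is which genes still differ between β cells around weaning and β cells of the adult.

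β cells make, store and release insulin, and mouse β cells acquire much of their glucose-regulated secretion in the weeks around weaning, when the diet turns from fat-rich milk to carbohydrate-rich chow. Early after birth they divide and express genes of endocrine progenitors and of the developing nervous system, which are turned down later. Cells that make large amounts of secreted protein depend on amino acid supply and on the endoplasmic reticulum, and the transcription factor Atf4 raises the genes of amino acid transport, tRNA charging and stress adaptation when either falls short. Atf4, paired with a C/EBP factor, is known to bind DNA elements of the form TGATGNAA. Factors of the Mitf and Tfe family, which act on lysosomal genes, and other basic helix-loop-helix factors bind CACGTG.

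Short stretches of the promoter windows that hold these letters are shown because Nupr1, the called gene with the largest fitted rise, holds both, and because some of the amino acid genes described below hold the first one. Windows were taken from RefSeq (GRCm38.p6) and ran from 250 bases before to 50 after the annotated start. Both strands were searched. Each stretch is written 5′ to 3′ on the strand that reads the element, with the element in capitals.

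Nupr1, chr7:126625562-126625591, plus strand: caagccctgtcTGATGCAAtctggcccttt
Chac1, chr2:119351038-119351067, minus strand: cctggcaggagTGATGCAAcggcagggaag
Slc1a4, chr11:20332699-20332728, plus strand: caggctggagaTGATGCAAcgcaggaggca
Trib3, chr2:152344028-152344057, plus strand: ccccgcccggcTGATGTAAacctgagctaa
Asns, chr6:7693214-7693243, minus strand: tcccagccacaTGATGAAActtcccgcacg
Gars, chr6:55037960-55037989, minus strand: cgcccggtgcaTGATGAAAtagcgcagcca
Slc7a11, chr3:50443661-50443690, minus strand: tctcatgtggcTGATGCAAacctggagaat
Ctsd, chr7:142388056-142388077, plus strand: tggatacaggtCACGTGgggga
Ctsd, chr7:142387909-142387936, plus strand: cctcaacgggtCACGTGagacgcgggcg
Dnmt3a, chr12:3891653-3891680, minus strand: gaactccaggtCACGTGggccccactgg

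The Nupr1 element lies 110 bases before the RefSeq start, in exon sequence of the annotated Nupr1 gene that does not code for protein. The Slc1a4, Trib3 and Asns stretches and the second one of Ctsd also lie in non-coding exon sequence, that of Dnmt3a lies in an intron, and the others lie before the annotated gene. Slc7a11 holds a further match in its window. TGATGNAA occurred in 3.97% of the 32851 windows and in those of 4.51% of 27025 genes. Among the 28 genes called below, 22 had a window, and only Nupr1 of these 22 held the element. Slc7a5, Ift81, Mpp3, Vamp3, Nrep and Pisd-ps1 had no window, so they were not searched for either element. Of the 35 genes on a list of amino acid supply and Atf4 targets, 30 had a window and 9 of those held it: Aars, Asns, Chac1, Gars, Nupr1, Slc1a4, Slc7a11, Trib3 and Vldlr. That list was assembled from known targets of the pathway, so its share is a description. CACGTG, which reads the same on both strands, occurred in 7.15% of windows and in those of 8.09% of genes. It was found for 7 of the 22 called genes, Ctsd, Dnmt3a, Ifi30, Mlxipl, Nupr1, Pak3 and Slc38a5, and for 11 of 28 genes of a lysosome and autophagy list. A match says only that the letters are present in the window.

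Cells held 0.622 to 1.71 M reads in genes (M for mega, median 1.21 M at P60 and 1.2 M near weaning), and summed batches held 5.96 to 49.1 M. Smart-seq2 libraries cover the length of a transcript without molecular identifiers, so reads are not independent molecules. Of β-cell genes, Ins1, Ins2, Iapp, Pdx1, Nkx6-1, Ucn3, Slc2a2 and G6pc2 had reads in each of the 11 batches, with Pdx1 at 148 to 270 CPM (read counts scaled to a common library total). Cells were collected by the Ins1 reporter and kept by their hormone label, so insulin reads are no test of that label. Mafa, a defining factor of adult β cells, was at 0 to 0.962 CPM near weaning and 0.472 to 1.16 CPM at P60. In bulk libraries of sorted β cells it averaged 57.7 CPM near weaning and 122 CPM at P60, so its level in the single cells was not interpreted. Reads of both insulin genes took 48.5% ± 1.77 (SD, n = 5) of gene reads at P60 and 47.4% ± 1.91 (n = 6) near weaning. Genes detected per cell, at 500000 reads each, numbered 7074 ± 333 and 6856 ± 261. The ratio of gene reads to synthetic spike-in reads was 53.7 ± 7.97 and 45.9 ± 11.2. None of these 3 measures passed a two-sided exact permutation test over batches (p = 0.312, 0.264 and 0.225, each 0.312 after Benjamini-Hochberg adjustment over the 3). The smallest p such a test allows here is 0.00433.

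Of 11 lists of markers of other cell types, no member passed the test between P60 and near weaning, among those with enough reads to test. The summed α-cell markers ranged from 392 to 742 CPM near weaning and 598 to 1177 CPM at P60, most of it Ttr, and the α-cell factor Irx1 had 0 reads in both groups. Summed acinar markers were at 0.0405 to 47.9 CPM near weaning and 12.6 to 26.7 CPM at P60, and endothelial markers at 0.970 to 6.2 and 5.23 to 12.4 CPM. Immune markers were at most 3.88 CPM near weaning and 1.08 CPM at P60, with Cd3e at 0 reads in both groups. Batch 3 of P60 stood apart for hormones of other islet cells. It held 218 CPM of glucagon (Gcg), 86.4% of it in 1 cell, against at most 1.42 CPM in the other 4 batches, and 97.0% of its Mki67 reads came from 1 cell. Without that batch 29 genes were called, 9 higher and 20 lower at P60, among them 23 of the 28 given next.

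Levels are CPM with TMM scaling, and a gene was called when its Benjamini-Hochberg adjusted p from edgeR's quasi-likelihood test was under 0.05. Of 16107 genes tested, 28 were called (0.174%), 10 higher (0.0621%) and 18 lower (0.112%) at P60. The genes that rose included Nupr1, Hspb8 and Slc7a5, which act in cell stress and amino acid uptake. The genes that fell included Nnat, Nrep, Igsf1 and Slc38a5, which are known from immature or neural cells, and the chromatin genes Dnmt3a, Hmgn1 and H3f3a. All 28 had the same sign in the FACS-sorted batches alone and in the hand-picked batches alone, where 3 and 10 of them were called. Both sets are parts of the batches from which the 28 were chosen, which favours equal signs, so this is a description. Batches of the 2 groups did not overlap for 9 of the 10 higher and 11 of the 18 lower genes, where 0.82% and 0.49% of all genes (1.31% in both directions) had batches that did not overlap in that direction. At an unadjusted p under 0.05 there were 1499 genes (9.31%), 888 of them higher. DESeq2 called 249 genes, among them all 28, while a fit to the 11 batches alone called 3, with 1 of them among the 28, and 12 and 16 were called without batch 4 or batch 5 of P60. The spread between batches was wide (common dispersion 0.491 in the fit to all 25 β-cell batches of 7 stages), and exons of 10 of the 28 genes overlap those of another gene.

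**Figure D1:**
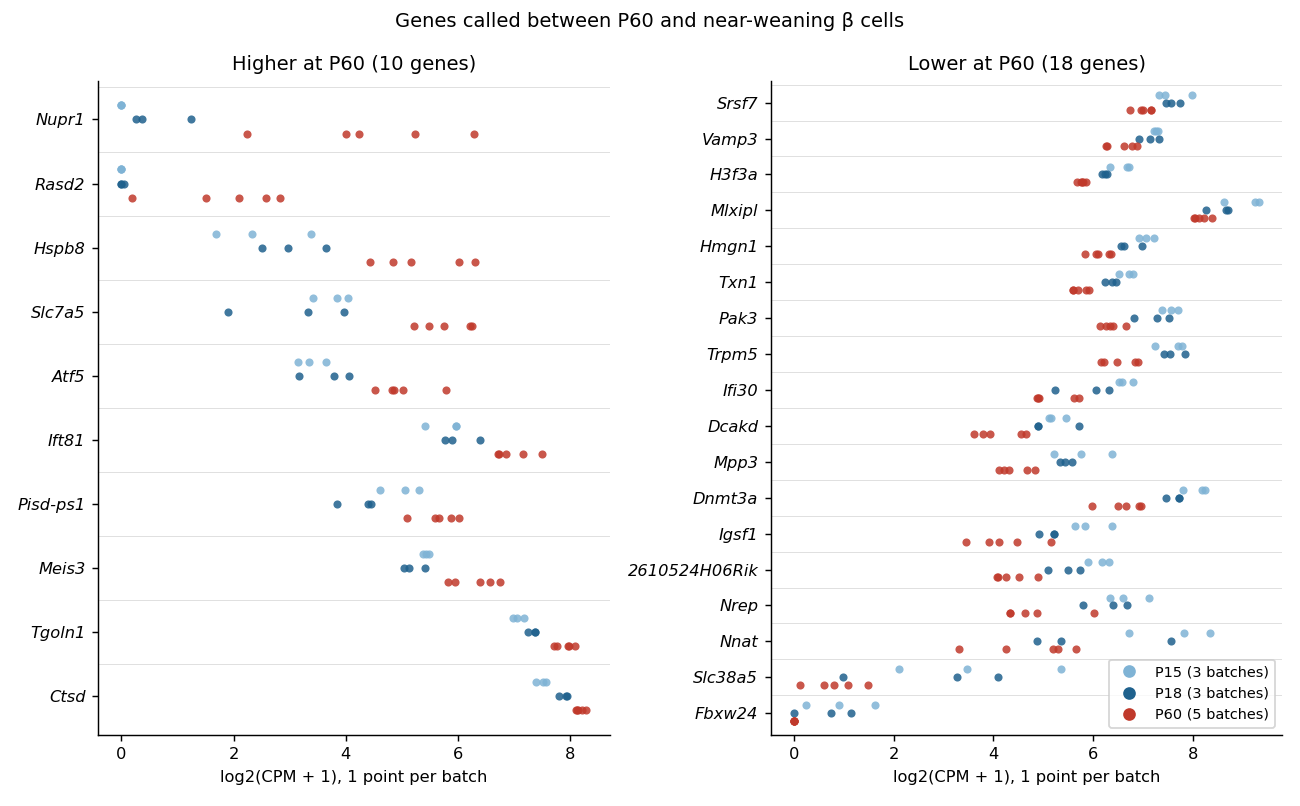
Level of each called gene, 1 point per batch, as log2(CPM + 1), with P15, P18 and P60 in different colours; the left panel holds the 10 genes higher and the right panel the 18 genes lower at P60. Nupr1 sits at 0 to 1.37 CPM near weaning and 3.70 to 77.1 CPM at P60, and the points of Nnat, Slc38a5 and Mlxipl from the 2 ages overlap.

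Nupr1, a small nuclear protein that is induced by stress, lies at chr7:126623249-126630861 on the minus strand (GRCm38, as are all gene positions here). It had 0 reads in all 3 batches of P15 and 0.28, 1.37 and 0.19 CPM in those of P18. At P60 it had 77.07, 3.70, 15.02, 17.80 and 36.81 CPM. Every P60 batch was therefore above every earlier one, with means of 30.1 ± 28.8 CPM (SD, n = 5) and 0.309 ± 0.536 CPM (n = 6). The fitted log2 difference was 8.93 ± 1.06 (SE, adjusted p = 0.000617). Because P15 had no reads, that fitted value depends on the fit's handling of zeros and is no bound. Reads of Nupr1 were unevenly held: 1 cell supplied between 22.4% and 66.0% of them in each P60 batch.

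Slc7a5, the transporter that brings large neutral amino acids such as leucine into the cell (chr8:121881150-121907694), ranged from 2.72 to 15.5 CPM near weaning with a median of 11.5. It had 36.4, 52.9, 43.8, 74.7 and 72.8 CPM at P60. The groups did not overlap, and Slc7a5 rose by a log2 value of 2.42 ± 0.35 (adjusted p = 0.00230). Atf5, a stress-responsive relative of Atf4 (chr7:44812256-44816658), ranged from 7.90 to 15.7 CPM near weaning (median 10.4) and had 31.5, 27.9, 54.4, 21.9 and 27.4 CPM at P60. Its batches were also separate, and it rose by 1.61 ± 0.33 on the log2 scale (adjusted p = 0.0425). Atf5 lost its call when any 1 of the 11 batches was left out, with adjusted p up to 0.128, and its exons overlap those of Il4i1 and Nup62 on the other strand.

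Hspb8, a small heat shock protein that guides misfolded proteins to autophagy (chr5:116408491-116422864), ranged from 2.23 to 11.5 CPM near weaning (median 5.73). It had 27.6, 20.5, 34.7, 77.8 and 63.4 CPM at P60, with no overlap. Hspb8 rose by 2.89 ± 0.44 on the log2 scale (adjusted p = 0.00346). Calls of Nupr1, Slc7a5 and Hspb8 held without any 1 of the 11 batches.

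The list of amino acid supply and Atf4 targets had 34 of 35 members tested. Nupr1 and Slc7a5 rose, Slc38a5 fell, and the other 31 members were not called. A further look at unadjusted p under 0.05 found 14 of the 34 higher and 1 lower, where 5.51% and 3.79% of all genes were, and the list's median log2 difference was 0.52 beside 0.06 for all genes. The list's median was 0.28 when each cell had equal weight and 0.40 in bulk libraries. The list and its membership were known to move in these data when it was chosen, so this is a description. Among members that were not called, the tRNA synthetase genes were Sars at 94.2 ± 16.6 CPM near weaning and 152 ± 26.1 at P60 (adjusted p = 0.0771), Nars at 95.6 ± 24.6 and 135 ± 22.1, Gars at 141 ± 19.1 and 181 ± 11.3, and Aars at 65.8 ± 15.7 and 99.1 ± 6.52. Asns, which makes asparagine, was at 75.7 ± 19.0 and 114 ± 25.3 CPM.

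Chac1, Trib3 and Slc1a4 on that list were past 4-fold without being called. Chac1, which degrades glutathione, ranged from 0 to 6.54 CPM near weaning and had 31.8, 4.17, 75.4, 9.59 and 19.6 CPM at P60, so that 1 adult batch lay within the earlier range (log2 3.18, adjusted p = 0.160). Trib3, a pseudokinase that restrains Atf4, was at 0 to 1.92 CPM and at 7.77, 2.68, 17.55, 0.599 and 1.52 CPM (log2 3.66, adjusted p = 0.523). Slc1a4, which carries alanine, serine and cysteine, was at 0 to 7.34 CPM and at 5.23, 13.0, 21.2, 7.72 and 12.6 CPM (log2 3.05, adjusted p = 0.482). Slc7a11, whose window holds the same element as these genes, was at 1.21 ± 0.388 CPM near weaning and 1.28 ± 0.385 at P60 (log2 0.09). Atf4 itself was at 176 ± 27.3 and 226 ± 33.2 CPM (log2 0.38, adjusted p = 0.351).

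The other rises were smaller. Ift81, a subunit of the transport complex that builds cilia, went from 41.7 to 83.3 CPM near weaning to 104 to 179 CPM at P60 (log2 1.12 ± 0.20, adjusted p = 0.0170). Meis3, a homeodomain factor, went from 31.7 to 43.8 CPM to 55.3, 82.6, 60.8, 106 and 94.6 CPM (log2 1.03 ± 0.16, adjusted p = 0.00523). Tgoln1, a protein of the trans-Golgi network where secretory granules form, went from 125 to 165 CPM to 208 to 270 CPM (log2 0.69 ± 0.11, adjusted p = 0.00716). Batches of the 2 ages were separate for all 3 genes, while the call of Ift81 was lost without batch 2 of P15, batch 1 or 2 of P18, or batch 2 or 4 of P60, with an adjusted p of at most 0.0699.

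Ctsd, the lysosomal protease cathepsin D whose 2 CACGTG stretches are shown above, ranged from 166 to 244 CPM near weaning (median 206) and had 312, 295, 276, 280 and 278 CPM at P60. It rose by 0.48 ± 0.10 on the log2 scale (adjusted p = 0.0495), and the call was lost when any 1 of the 11 batches was left out, with adjusted p up to 0.133. Ctsd shares exon sequence with Gm49369 on the same strand. The lysosome and autophagy list had 38 members tested, of which Ctsd alone was called. At an unadjusted p under 0.05, 8 were higher and 1 lower, where 5.51% and 3.79% of all genes were, and the median log2 difference was 0.14. The kinase Ulk1, which starts autophagy, was at 6.01 ± 3.20 CPM near weaning and 15.2 ± 2.98 at P60 (adjusted p = 0.530).

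Rasd2 and Pisd-ps1 also rose, and are named here because they were called, after their values were seen. Rasd2, a small GTPase of the Ras family, had 1 read in all 6 batches near weaning and 383 reads at P60. Scaled for depth, that is a ratio of 379 with a 95% counting interval of 67.7 to 15022, which covers counting error only. Its P60 levels were 3.28, 6.06, 0.147, 5.00 and 1.83 CPM (adjusted p = 0.0395), and it lost its call without any of 10 of the 11 batches. Pisd-ps1 is a pseudogene nearly identical to Pisd, so that the split of reads between them is uncertain. Pisd-ps1 averaged 24.7 ± 9.16 CPM and 50.3 ± 11.8 CPM (log2 1.08, adjusted p = 0.0327, lost without any of 9 batches), and Pisd was at 22.1 and 36.6 CPM (log2 0.75, adjusted p = 0.0771).

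Among the genes that fell, Dnmt3a had the smallest p of those with a position in the annotation. It encodes the enzyme that writes new DNA methylation (chr12:3806007-3914443), and its RefSeq window holds the CACGTG stretch shown above. Dnmt3a ranged from 175 to 302 CPM near weaning (median 217) and had 121, 89.8, 124, 62.1 and 99.6 CPM at P60. The groups were apart, and Dnmt3a fell by 1.23 ± 0.16 on the log2 scale (adjusted p = 0.000617). Exons of Dnmt3a overlap those of its antisense gene Dnmt3aos. Tet1, an enzyme that starts the removal of DNA methylation and is named here after its values were seen, went from 23.0 to 39.5 CPM near weaning to 9.55 to 20.7 CPM at P60 without being called (adjusted p = 0.0676). Tet1 was called lower in the bulk libraries (log2 -1.33, adjusted p = 0.0233). Hmgn1, a protein that loosens packed nucleosomes (chr16:96120618-96127729), went from 93.7 to 148 CPM to 56.3 to 81.0 CPM (log2 -0.77 ± 0.13, adjusted p = 0.00716). H3f3a, 1 of the genes of the replication-independent histone H3.3 (chr1:180800832-180813943), went from 71.4 to 105 CPM to 50.4 to 56.7 CPM (log2 -0.65 ± 0.11, adjusted p = 0.00716). Neither Hmgn1 nor H3f3a had overlapping groups, and all 3 chromatin genes were called without any 1 of the 11 batches.

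A second group was made of called genes known from immature endocrine or neural cells. The 29 tested members of the immature endocrine list had a median log2 difference of -0.03, beside 0.06 for all genes. Of these members 14 had a positive and 15 a negative value, and the list's median was -1.53 in bulk libraries. The neuronal adhesion and guidance list had 14 positive and 14 negative values and no call. Nnat, an imprinted membrane protein of the endoplasmic reticulum, had 225, 327 and 104 CPM at P15, 39.8, 28.3 and 187 at P18 and 35.9, 49.2, 18.2, 8.95 and 38.6 at P60. It fell by 2.08 ± 0.43 on the log2 scale (adjusted p = 0.0495), but batches 1 and 2 of P18 lay within the adult range, and in the FACS-sorted batches the difference was -0.67 (adjusted p = 0.328). The call of Nnat was lost without any of 8 of the 11 batches, each of the 5 at P60 among them. In many batches 1 cell held much of the Nnat signal, from 19.1% to 91.1% of a batch's reads. Slc38a5, a glutamine transporter of fetal endocrine and α cells, ranged from 0.970 to 40.1 CPM near weaning and 0.0787 to 1.79 CPM at P60 (log2 -3.79 ± 0.68, adjusted p = 0.0149). Its groups overlapped because P18 batch 3 was at 0.970 CPM, and the call was lost without batch 4 or batch 5 of P60.

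Nrep, which is abundant in growing neurons, and Igsf1, an immunoglobulin-domain membrane protein, are named after their values were seen. Nrep ranged from 54.6 to 139 CPM near weaning and had 19.1, 19.3, 63.8, 28.4 and 24.0 CPM at P60. Batch 3 of P60 was the only adult batch inside the earlier range (log2 -1.62 ± 0.27, adjusted p = 0.00725), and the call held without any 1 batch. Igsf1 went from 29.3 to 82.4 CPM to 10.0 to 34.5 CPM, with overlap (log2 -1.31 ± 0.26, adjusted p = 0.0327), and lost its call without any of 7 batches.

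Other genes that fell have various known roles. Trpm5, a calcium-activated cation channel that depolarises β cells during glucose stimulation (chr7:143069153-143094642), ranged from 151 to 231 CPM near weaning and had 73.8, 118, 114, 70.8 and 88.7 CPM at P60. It fell by 1.05 ± 0.22 on the log2 scale (adjusted p = 0.0464) without overlap, and its exons overlap those of Tssc4. Mlxipl, the glucose-sensing transcription factor ChREBP, fell by 0.66 ± 0.13 (adjusted p = 0.0327), from a range of 308 to 645 CPM to one of 261 to 334 CPM, with overlap. Vamp3, a vesicle protein of the fusion machinery, fell by 0.63 ± 0.12 (adjusted p = 0.0327), from 121 to 159 CPM to 75.4 to 117 CPM. Trpm5, Mlxipl and Vamp3 each lost the call without any of 8 of the 11 batches.

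Pak3, a kinase downstream of Rac and Cdc42 that shapes the actin cytoskeleton (chrX:143518591-143797796), fell by 1.02 ± 0.15 (adjusted p = 0.00230). Its level ranged from 112 to 209 CPM near weaning and was 75.6, 69.5, 100, 79.8 and 83.0 CPM at P60, with no overlap. Txn1, the thioredoxin that keeps protein thiols reduced, fell by 0.80 ± 0.13 (adjusted p = 0.00716), from 74.1 to 111 CPM to 47.4 to 59.2 CPM. Mpp3, a scaffold protein of cell junctions, fell by 1.23 ± 0.23 (adjusted p = 0.0256), from 36.0 to 82.4 CPM to 16.4 to 27.5 CPM. Dcakd, which contains a dephospho-CoA kinase domain and overlaps Nmt1, fell by 1.10 ± 0.21 (adjusted p = 0.0326), from 28.6 to 51.8 CPM to 11.3 to 24.2 CPM. Pak3 and Txn1 were called without any 1 batch, while Mpp3 lost its call without any of 5 batches and Dcakd without any of 6, batches 2, 4 and 5 of P60 among them for both.

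The remaining called genes lie outside the naming rule and are given after their values were seen. Srsf7, a splicing factor, fell by 0.58 ± 0.12 (adjusted p = 0.0395). Ifi30, a lysosomal thiol reductase used in antigen processing, fell by 1.05 ± 0.21 (adjusted p = 0.0425). Both lost the call without any of 8 batches. 2610524H06Rik had 33.0 to 79.0 CPM near weaning and 15.8 to 28.9 CPM at P60 (log2 -1.45 ± 0.19, adjusted p = 0.000617). Fbxw24 had 128 reads near weaning, in 8 cells, and 0 at P60 (adjusted p = 0.0139), and its call was lost without batch 4 of P60. Against a floor of 3 reads over the P60 group it was 34.8-fold lower, a figure that covers counting error only and is no bound.

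Just inside the threshold stood Nnat and Ctsd, both at an adjusted p of 0.0495, and just outside it Galnt14 at 0.0501, Fam134b and Snrpd3 at 0.0503, Mpzl1 at 0.0510 and Il1r1 at 0.0519. Some genes with no or almost no reads near weaning also missed it. Kcnf1, a modifying subunit of voltage-gated potassium channels, had 0 reads in all 6 batches near weaning and 7.40, 8.18, 15.0, 11.8 and 3.45 CPM at P60 (adjusted p = 0.0592). With 3 reads over the earlier group taken as the floor, Kcnf1 was 381-fold higher, a figure that covers counting error only and is no bound. Kcnf1 was called in the bulk libraries (log2 3.68, adjusted p = 0.00746). Mmp23 had 0 reads near weaning and 179 at P60, 60.6-fold higher against the same floor and with the same limit (adjusted p = 0.0708). Zcchc12 had 3 reads near weaning and 640 at P60 (adjusted p = 0.0592). These neighbours of the threshold were chosen after their values were seen.

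The hormone genes Ins1, Ins2 and Iapp and the glucose transporter Slc2a2 were not called. Ins1 averaged 183281 ± 22821 CPM near weaning and 179574 ± 13612 CPM at P60 (log2 -0.03 ± 0.14), and Ins2 387929 and 415417 CPM (log2 0.11 ± 0.14). Iapp, the amyloid peptide secreted with insulin, differed by 0.15 ± 0.13. Ucn3, a peptide that marks maturing mouse β cells, was at 738 ± 159 and 700.0 ± 199 CPM (log2 -0.03 ± 0.22). The glucose transporter Slc2a2 differed by 0.22 ± 0.13, the glucose-6-phosphatase G6pc2 by 0.32 ± 0.19 and chromogranin A (Chga) by 0.22 ± 0.14. Syt4, a synaptotagmin whose level is known to go up with β-cell maturation, was at 85.2 ± 28.9 and 143 ± 23.2 CPM (log2 0.84 ± 0.32, adjusted p = 0.397). An adjusted p that misses the threshold does not show that these levels were equal.

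Hormones and progenitor genes varied widely between batches and none of those always named was called. Dlk1, a Notch ligand relative of immature β cells, was at 1.10 to 7.10 CPM near weaning and 0 to 1.47 CPM at P60 (log2 -2.87, adjusted p = 0.162). Pyy, a gut and islet peptide, was at 0.776 to 389 CPM and 0.0523 to 20.7 CPM (log2 -4.85, adjusted p = 0.125), and Ppy, pancreatic polypeptide, at 0.776 to 195 and 0 to 19.6 CPM (adjusted p = 0.336). Gcg reached 34.4 CPM near weaning and 218 CPM in batch 3 of P60, and without that batch its log2 difference went from 1.63 to -4.11. Npy likewise went from 1.61 to -1.96. Sst averaged 9.08 ± 6.18 and 3.04 ± 2.52 CPM, and Rbp4 8.26 ± 8.87 and 8.37 ± 5.15 CPM. Cdkn2a, which rises with age in β cells, had 0 reads near weaning and 5 at P60, in 1 cell, too few to test.

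Other listed genes past 4-fold were not called, and the 14 of 61 such genes that reached 5 CPM in either group are given as values, a limit set after the values were seen. Gc, the vitamin D binding protein, was at 0.194 to 24.6 CPM near weaning and 76.8, 69.0, 37.3, 90.4 and 72.7 CPM at P60, with no overlap (log2 2.32, adjusted p = 0.209). Thrb, a thyroid hormone receptor, was at 0.388 to 5.09 and 5.99 to 13.8 CPM, also without overlap (log2 2.08, adjusted p = 0.412). Oat, an aminotransferase held low in adult β cells, was at 3.52 to 39.5 and 0 to 5.64 CPM (log2 -2.89, adjusted p = 0.136). Pdyn, the opioid precursor, reached 83.1 CPM near weaning, in batch 3 of P18 with 100% of its reads in 1 of 5 cells, and 65.5 CPM at P60. Cd24a was at 0 to 19.0 and 0.147 to 2.51 CPM, and Hspa1a at 0 to 31.9 and 4.65 to 64.1 CPM. The cycle genes Cdk1, Kif11, Mcm3 and Ube2c reached between 29.3 and 73.7 CPM near weaning in batches 2 and 3 of P15 and at most 9.75 CPM at P60. In those batches of P15, 1 cell held from 37.0% (Mcm3, batch 2) to 99.7% (Cdk1, batch 3) of a gene's reads. At P60, 1 cell held 100% of the Mcm3 reads of batch 3.

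Genes of cell division varied between batches of the same age. Mki67 had 5.96, 82.0 and 52.0 CPM at P15 but 1.21, 0.192 and 0 CPM at P18, and at P60 it had 0.131, 0, 7.44, 1.27 and 1.52 CPM. P18 and P60 thus overlapped, and the high values were those of P15 batches 2 and 3, where 1 cell held 42.0% and 80.7% of the Mki67 reads. None of 46 tested proliferation genes was called by edgeR in single cells, where 0.174% of all genes were. At an unadjusted p under 0.05, 6 of the 46 were lower, where 3.79% of all genes were. A negative log2 value was found for 37, and the list's median was -1.29 beside 0.06 for all genes. The median of the list was -2.05 in FACS-sorted batches and 0.64 in hand-picked batches.

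Calls within the 27 lists are given beside a share of 0.174% called over all genes tested. Of the β-cell function list 1 of 20 was called (Trpm5, lower), of immature endocrine genes 2 of 29 (Nnat and Slc38a5, lower), of exocytosis genes 1 of 37 (Vamp3, lower), of islet transcription factors 1 of 28 (Mlxipl, lower) and of antioxidant genes 1 of 32 (Txn1, lower). Slc38a5 was also the call among 12 α-cell identity genes, Trpm5 that among 45 ion channels, and Mlxipl that among 35 genes of carbohydrate sensing. No member was called among 75 genes of oxidative phosphorylation, of which 68 had a negative log2 value and 15 were lower at an unadjusted p under 0.05, where 3.79% of all genes were (median -0.22). The median was -0.11 in FACS-sorted and -0.12 in hand-picked batches, and in the bulk libraries none of these genes was called lower and 1 was called higher. Examples are Atp5g1 at 92.4 ± 14.0 and 62.5 ± 15.0 CPM and Atp5c1 at 228 ± 24.3 and 178 ± 10.7 CPM, subunits of the ATP synthase. Ribosomal protein genes had a median of -0.10 over 79 genes, which was 0.05 in hand-picked batches. No member of the lists of glycolysis (18 tested), fuel coupling and TCA cycle (40), endoplasmic reticulum folding (33) or sterol and fatty acid synthesis (29) was called by edgeR. At an unadjusted p under 0.05 these lists had 2, 3, 4 and 5 genes higher and 0, 5, 3 and 1 lower, where 5.51% and 3.79% of all genes were.

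B2m and Dio1 are examples of list members whose groups were apart without a call, and there were others. The MHC class I and interferon list had 3 higher members without overlap, and oxidative phosphorylation 3 lower ones, with no call in either list. Over all genes tested, 1.31% had groups that did not overlap. B2m, the invariant subunit of MHC class I molecules, was at 21.2 to 63.8 CPM near weaning and 82.0 to 113 CPM at P60 (log2 1.27, adjusted p = 0.265). Its list had a median of 0.37 over 25 genes when reads were summed, 0.10 when each cell had equal weight and 0.12 in bulk libraries. Dio1, a deiodinase that activates thyroid hormone, was at 31.6 to 52.7 and 58.7 to 121 CPM (log2 1.01, adjusted p = 0.137). Its list of thyroid hormone and retinoid genes had a median of 0.70 over 19 genes when reads were summed and 0.02 when each cell had equal weight. The members given next had groups that overlapped. Scg2, a secretogranin, was at 6156 ± 733 and 9273 ± 2222 CPM (adjusted p = 0.137). The potassium channel subunits Abcc8 and Kcnj11, through which glucose metabolism sets the membrane potential, had log2 values of 0.36 and 0.78 (adjusted p = 0.297 and 0.351).

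**Figure D2:**
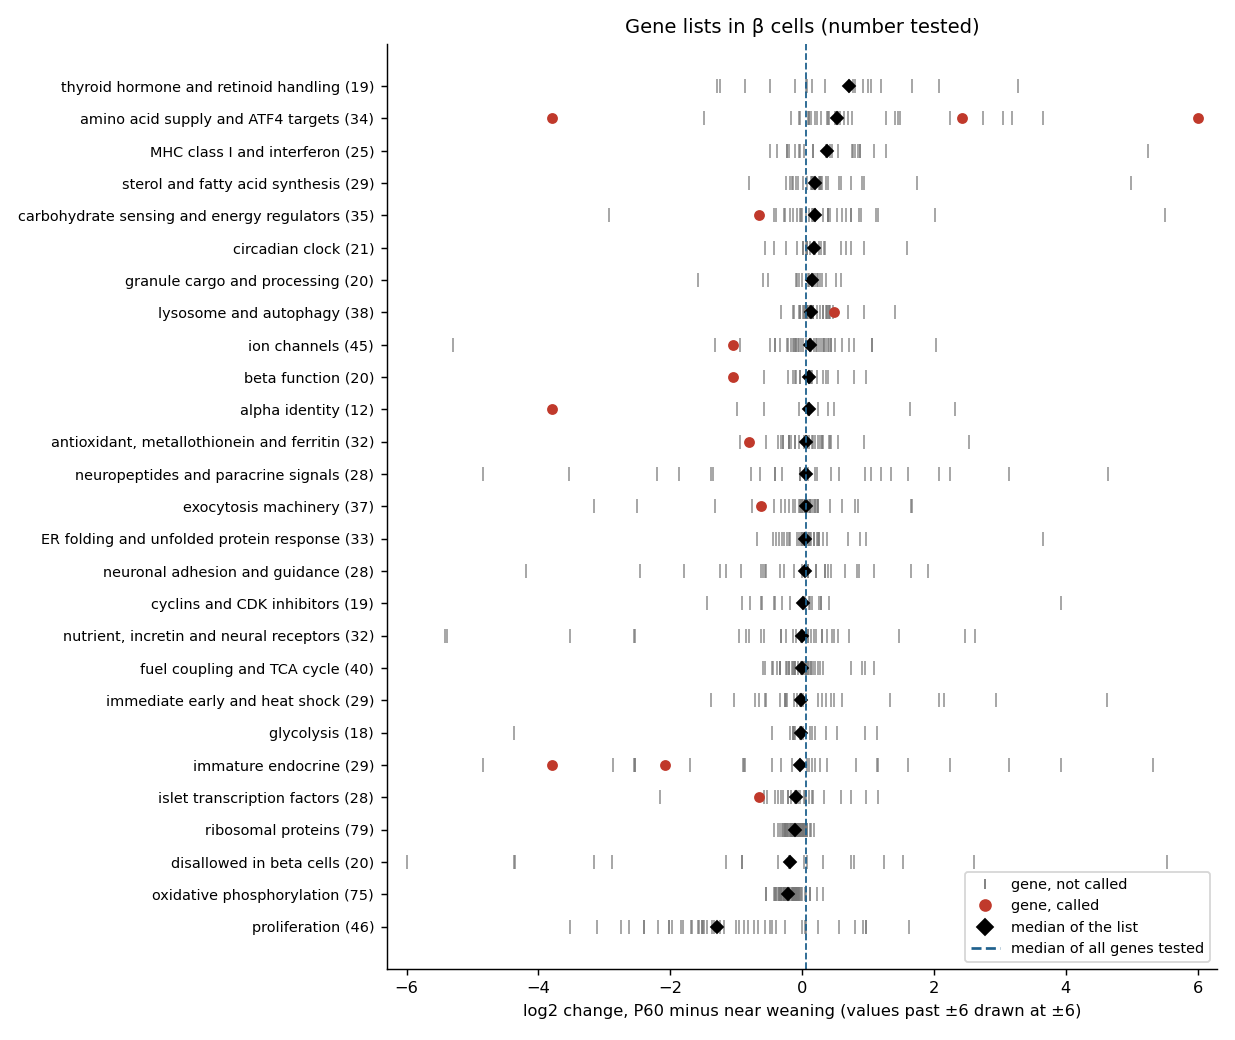
log2 difference (P60 minus near weaning) of each tested member of the 27 gene lists, with called genes as red points, the list median as a black diamond and the median of all genes tested (0.06) as a dashed line; values past 6 in either direction are drawn at 6 or -6. Most ticks lie near 0, the list of amino acid supply and Atf4 targets has its median at 0.52, and proliferation genes have theirs at -1.29.

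Over the 7 stages, the adult level was an extreme for most of the called genes. Mean CPM at P60 was the highest of all stages for 9 of the 10 higher genes, the exception being Pisd-ps1 with its highest mean at E17.5. It was the lowest for 17 of the 18 lower genes, the exception being Trpm5. The 28 were chosen for a difference of P60 from P15 and P18, which favours P60 as an extreme. The stages before P15 were not used in the contrast, but their batches shared its fit. The share over all genes was not computed, so this is a description with no test. Nupr1 averaged between 0 and 0.617 CPM at all 6 earlier stages. Slc7a5 was at 27.7 CPM at E17.5, 30.0 at P9 and 8.79 at P18 before reaching 56.1 at P60.

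Hspb8 ran down and then up again. Its mean was 40.0 CPM at E17.5 and 36.1 CPM at P0, came to 15.3, 9.61 and 5.25 CPM over P3, P9 and P15, and was 7.66 CPM at P18 before the 44.8 CPM of P60. Trpm5 ran the other way, from 43.7 CPM at E17.5 to 196 at P18, and was at 93.2 CPM at P60, below P9, P15 and P18 but above P3. Dnmt3a stayed between 272 and 346 CPM from E17.5 to P15 and was at 200 CPM at P18 and 99.3 at P60. Slc38a5, Nnat and Nrep decreased in mean from E17.5 on: Slc38a5 went from 492 CPM at E17.5 to 17.8 at P15 and 0.847 at P60, Nnat from 7085 to 219 and 30.2, and Nrep from 551 to 105 and 30.9. The highest stage mean of the lower genes was at E17.5 for 8 of them and at P15 for 4.

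**Figure D3:**
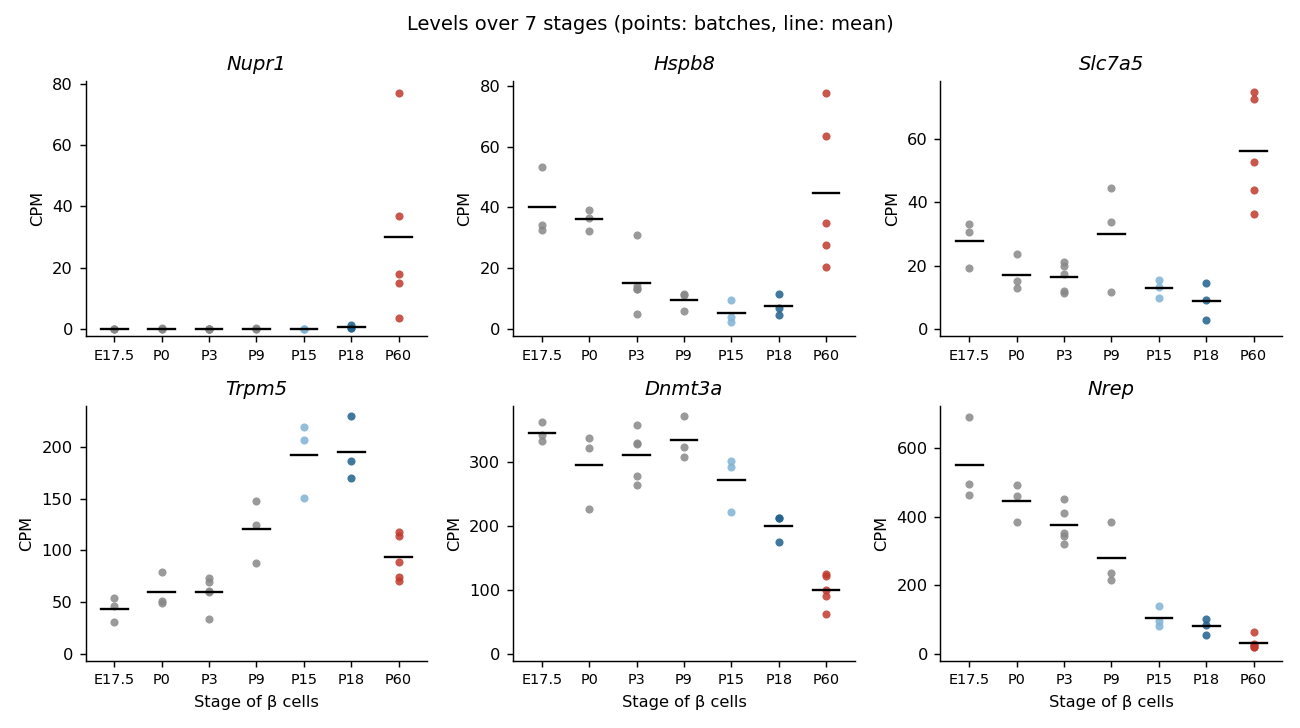
CPM of Nupr1, Hspb8, Slc7a5, Dnmt3a, Trpm5 and Nrep in the 25 β-cell batches of 7 stages (points) with the mean of each stage (line), on linear axes. Nupr1 and Slc7a5 are highest at P60, Hspb8 is high at both ends (40.0 and 44.8 CPM), Trpm5 peaks at P18 (196 CPM), and Dnmt3a and Nrep are lowest at P60.

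P15 and P18 were pooled by design, and against each of them alone all 28 genes kept their sign. These 2 contrasts share the P60 batches. P60 against P15 called 49 genes, 13 higher and 36 lower, among them 21 of the 28. P60 against P18 called 0 genes in edgeR, where 1051 (6.53%) had an unadjusted p under 0.05. The 28 were chosen from a contrast that holds these batches, so neither contrast is independent of the choice. P18 against P15 called 1 gene (0.00621% of those tested) and none of the 28. At an unadjusted p under 0.05 there were 11 of the 28 and 1261 of all genes tested (7.83%). The P15 and P18 batches also entered the choice of the 28, so that count is a description. Dnmt3a, for example, averaged 272 CPM at P15, 200 at P18 and 99.3 at P60, with log2 differences of -1.46 from P15 and -0.998 from P18.

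In single cells, the rises took different forms. A Nupr1 read was found in 4 of 128 cells near weaning (3.12%) and in 48 of 129 at P60 (37.2%), and in 2.34% and 35.7% when each cell was thinned to 500000 reads. By batch, 38.5%, 21.4%, 37.9%, 50.0% and 28.6% of the adult cells held one, and the median adult cell had none. Hspb8 reads were found in 15.6% and 66.7% of cells (14.8% and 65.1% thinned), with 51.3% to 81.0% in the P60 batches and 7.41% to 30.0% in the earlier ones. Slc7a5 reads were found in 55.5% and 89.1% of cells, and the median cell went from 5.92 to 35.6 CPM. Dnmt3a was detected in 100% and 99.2% of cells, with a median of 179 CPM per cell near weaning and 80.6 at P60. A cell without a Nupr1 read is not shown to lack the transcript. The lower Dnmt3a level was seen in the median cell.

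Within the adult batches, cells with Nupr1 reads were compared with cells without them as a description. In batch 3 of P60, 11 cells with a Nupr1 read had median levels of 51.0 CPM for Chac1, 69.1 for Atf5 and 154 for Asns, against 6.4, 26.3 and 51.0 CPM in the other cells. In batch 1, 15 such cells had medians of 19.6 CPM for Chac1 and 25.6 for Atf5 against 0 and 7.00. In batch 4, with 13 such cells, the medians were 0 in both sets for Chac1, 12.1 and 12.6 CPM for Atf5 and 69.5 and 61.4 CPM for Asns. In batch 2, 3 such cells had medians of 1.69 CPM for Atf5 and 44.8 for Asns against 9.5 and 71.1, with 0 in both sets for Chac1. In batch 5, 6 such cells had medians of 18.4 CPM for Chac1, 27.7 for Atf5 and 149 for Asns against 0, 15.9 and 69.9. The set with the higher Atf5 median was not the same in each batch, and that was not tested. Spearman's rho between Nupr1 and Chac1 over the cells of a batch was 0.43, -0.27, 0.41, -0.05 and 0.19 in batches 1 to 5, over 39, 14, 29, 26 and 21 cells that share a batch. In sparse counts such values are weak descriptions.

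**Figure D4:**
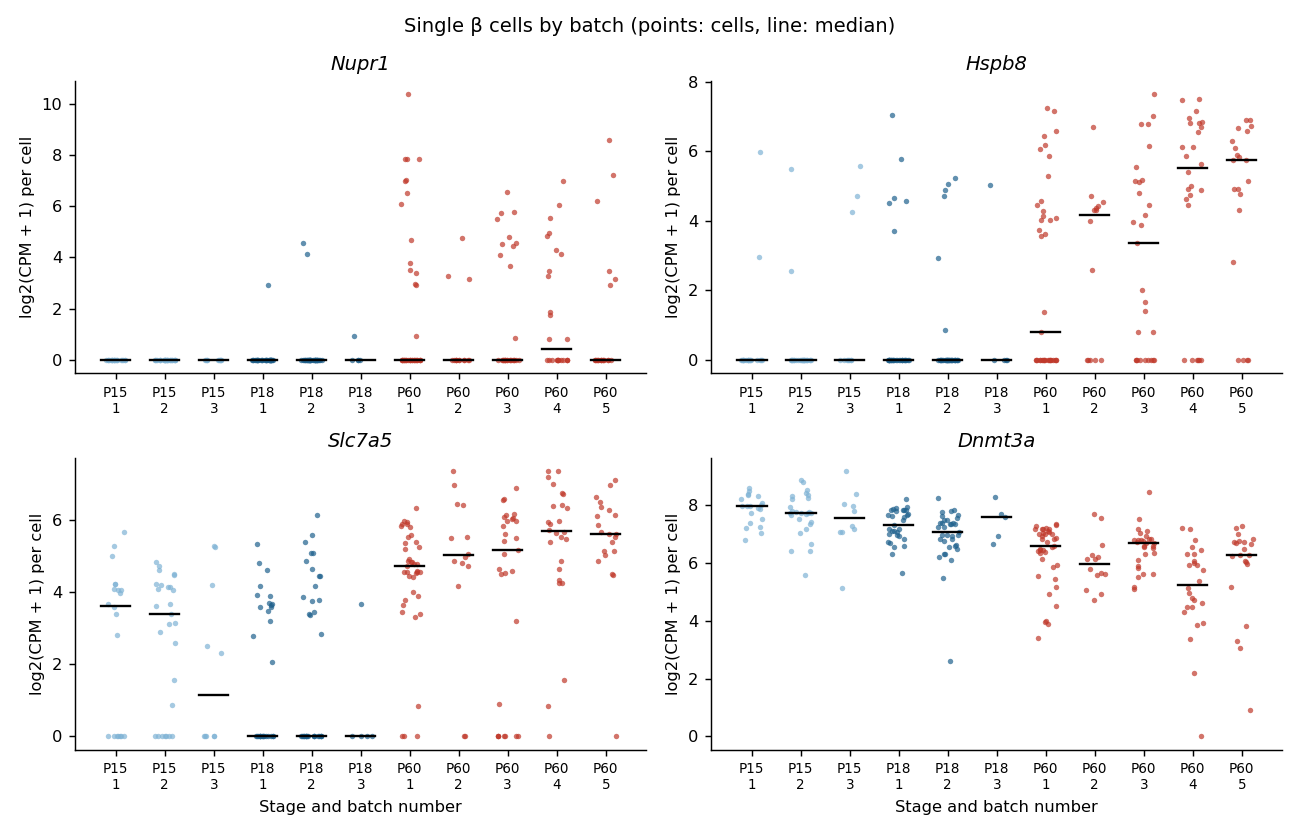
log2(CPM + 1) of Nupr1, Hspb8, Slc7a5 and Dnmt3a in each of the 257 cells, by stage and batch number (points), with the median cell of each batch as a line. Nupr1 is at 0 in every cell of P15 and reaches 1321 CPM in 1 cell at P60, Hspb8 and Slc7a5 are read in more cells at P60, and the median cell for Dnmt3a is at 179 CPM near weaning and 80.6 CPM at P60.

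Bulk libraries of sorted Ins1-RFP+ β cells, 2 for each stage, give separate samples of the same ages, prepared from poly(A)-selected RNA in a way that keeps the strand. Sorted populations held RNA of other islet cells: Gcg averaged 8113 CPM near weaning and 2954 CPM at P60. In bulk RNA, fewer cells of a type and less RNA per cell cannot be told apart. The bulk fit called 975 of 16086 genes (6.06%), 452 higher (2.81%) and 523 lower (3.25%). All 28 genes called in single cells were tested, 27 had the same direction, and 14 were also called, with none called in the opposite direction. Over 14406 genes tested in both, 61.0% had the same direction and 5.38% had it with a bulk call. The exception in direction was Pisd-ps1 (-0.12). Leaving out 1 bulk library moved the bulk count to between 105 and 1078.

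Nupr1 in bulk had 23.3 and 14.7 CPM at P15, 15.3 and 21.8 at P18 and 293 and 92.5 at P60 (log2 3.36 ± 0.41, adjusted p = 0.00143). Its level near weaning was thus well above 0 in bulk, unlike in the single cells. Atf5 averaged 70.6 and 207 CPM (log2 1.55 ± 0.19, adjusted p = 0.00142) and Chac1 8.66 and 27.9 CPM (log2 1.88, adjusted p = 0.0128). Slc7a5 was at 136 and 179 CPM in bulk (log2 0.40 ± 0.14, adjusted p = 0.119), a smaller difference than the 2.42 of the single cells. Dnmt3a fell from 528 to 212 CPM (log2 -1.32 ± 0.16, adjusted p = 0.00144), and Nnat from 335 to 23.9 CPM (log2 -3.72 ± 0.31, adjusted p = 0.000265). Genes that bulk called and single cells did not include Ucn3 (log2 0.61, adjusted p = 0.0400), Syt4 (1.01, 0.00506), G6pc2 (1.01, 0.0195) and Dlk1 (-4.70, 0.000479), each named with its bulk value. In bulk, 3.25% of all genes were called lower and 2.81% higher. Beside these shares, 16 of 28 immature endocrine genes were called lower and 1 higher. Of 46 proliferation genes, 19 were called lower and 0 higher. Of the amino acid and Atf4 list, 11 of 34 rose and 3 fell in bulk.

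**Figure D5:**
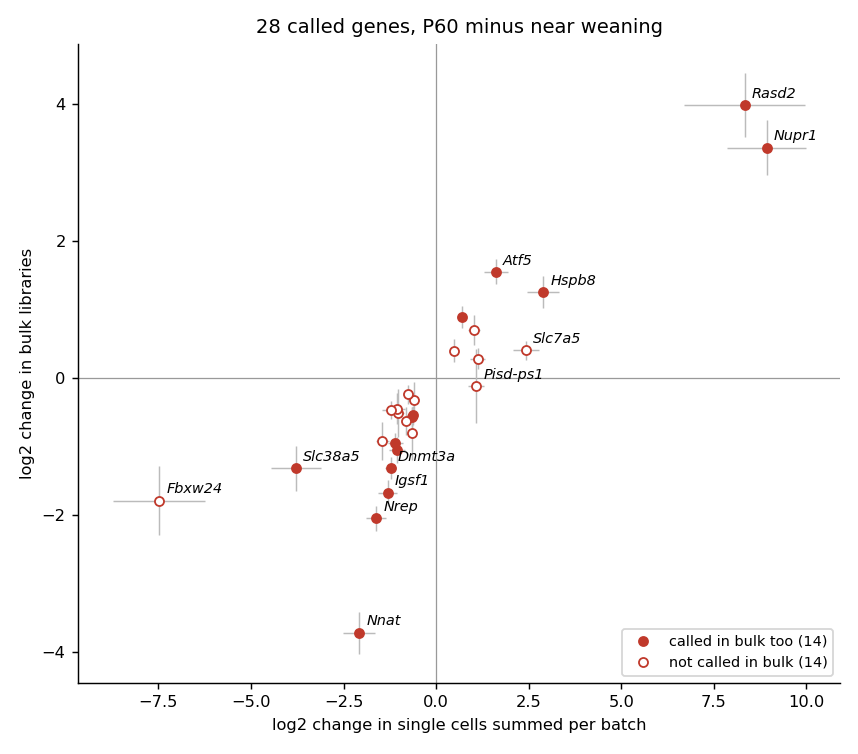
Fitted log2 difference (P60 minus near weaning) of the 28 called genes in single cells summed per batch (x axis) and in bulk libraries (y axis), with bars of 1 SE; filled points are the 14 genes also called in bulk. All points but that of Pisd-ps1 lie in the quadrants of equal sign; single-cell values of Nupr1, Rasd2 and Fbxw24 rest on groups with few or no reads and are not bounds.

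α cells of the same ages, from Gcg-Cre; Rosa-RFP mice on a mixed C57BL/6, CBA/J and C3H background, numbered 83 at P60 and 89 near weaning, in 5 batches each. Cre under the glucagon promoter marks them, and their strain mix differs from that of the β-cell mice. The α-cell contrast called 25 of 18537 genes (0.135%), 0.0432% of them higher and 0.0917% lower as shares of the genes tested. Of the 28 β-cell genes, 21 had the same direction in α cells and 1 was called there: Mlxipl fell from 43.9 to 10.7 CPM (log2 -1.99, adjusted p = 0.000142). The difference of the 2 contrasts was called for none of the 28 by edgeR (smallest adjusted p = 0.106, for Slc7a5). At an unadjusted p under 0.05 it passed for 17 of the 28, against 6.65% of all genes, but these genes were picked for their change in β cells, which favours such a difference.

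Slc7a5 averaged 22.2 CPM near weaning and 12.8 CPM at P60 in α cells, and the difference of log2 changes was 3.17. Dnmt3a averaged 124 and 99.3 CPM in α cells (log2 -0.30, adjusted p = 0.521). Pak3 averaged 251 and 280 CPM (log2 0.17, adjusted p = 0.906). Slc38a5 was at 367 and 162 CPM in α cells, against 13.2 and 0.847 CPM in β cells. Nupr1 was at 0 to 0.0743 CPM in α cells near weaning and 0 to 5.94 CPM at P60. Its fitted log2 difference in α cells was 6.50 (edgeR, adjusted p = 0.126), and the β-minus-α difference of 2.43 was not called. Both fitted values rest on groups with few or no reads and are no bounds. Over all genes, the difference was called for 1 of 18537 (0.00539%), Ano9, which was not among the 28.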

How the data were processed

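Smart-seq2 libraries of single cells and poly(A) libraries of sorted cells were counted by the authors. The deposited tables hold raw read counts per gene and cell or library, for 40824 gene rows and 92 synthetic spike-in rows, the latter left out of library sizes. The submitters' processing notes name HTSeq (0.6.0), TopHat2 (2.1.0), DESeq (1.20.0) and the build GRCm38/mm10. The annotation release, strand setting and filters are not given in the sources used here, so reads of overlapping genes may not be told apart. Deposited TPM values were not used. TPM was computed from the counts and the deposited gene lengths where stated.

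Counts of single-hormone cells were summed per labelled batch. edgeR 4.0.16 (R 4.3.3, TMM scaling, its expression filter, quasi-likelihood test) was fitted to 25 β-cell batches of 7 stages with stage and collection method as terms, and P60 was contrasted with the mean of P15 and P18. α-cell batches entered only the β-minus-α fit of 45 batches, and the 14 bulk libraries had a fit of their own. Batch values (insulin share, genes detected, reads per spike-in read) were compared by exact permutation tests in SciPy 1.17.1. Counting intervals and floors cover counting error only, since reads are not independent molecules. No 2 cells held identical counts.

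The members, gene lists and tests were chosen with earlier results of these data known. Genes were named by rule: in each direction the 8 called genes of largest change whose groups were separate and reached 20 CPM (predicted genes, ribosomal genes and pseudogenes skipped), at most 3 called members per list with at least 5 CPM, a set of always-named β-cell genes, and, as values only, list members past 4-fold that were not called. Some items that the rule would name are not reported here. Alternatives were DESeq2 1.42.0, RLE scaling, no filter, other sets of batches, each collection method alone, each age alone, a replicate block, equal weight per cell with limma 3.58.1 on batch means of log2(TPM + 1), and leaving out each batch. Scripts for the many-gene tests were tested on simulated data.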

Additional observations from a re-analysis of the deposited data

Results flagged for a closer look

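Values of 94 gene or batch measures within one age were examined for a batch set apart from its group, which chance alone would give for about 5% of them, and 14 were. Batch 3 of P60 was the high one for Gcg (218 CPM), Npy (45.7 CPM), Ppy (19.6 CPM), Mki67 (7.44 CPM) and Nrep (63.8 CPM). The P60 batch 2 was low for Ins1 (155576 CPM), and batch 5 held all reads of Cdkn2a (0.261 CPM). Near weaning, batch 2 of P18 was high for Nupr1 (1.37 CPM) and Rasd2 (0.0275 CPM), batch 3 of P18 for Gcg (34.4 CPM), batch 1 of P15 for Npy (31.4 CPM), batch 2 of P15 for Ppy (195 CPM) and for genes detected per cell (7358), and batch 3 of P15 for Mpp3 (82.4 CPM).

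Ano9, a member of the anoctamin family of membrane proteins, was the only gene called for a difference between the β-cell and the α-cell change (log2 difference 9.26, adjusted p = 0.0434 by edgeR). In α cells it had 233 reads near weaning, in 4 of 5 batches with at most 6.76 CPM, and 0 reads at P60, while in β cells it averaged 6.05 CPM and 7.97 CPM. The α-cell group at P60 had no reads, so the fitted difference is no bound, and the call held in 1 of the 11 fits that each left out a β-cell batch.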

How the results depend on the processing

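All 28 called genes had the same sign in each of the 23 alternative settings, while the number of calls moved widely. These settings reuse batches from which the 28 were chosen, which favours equal signs. DESeq2 called 249 genes (120 higher, 129 lower), no expression filter 78 (34 and 44), the 11 batches alone 3 (3 and 0), P15 alone 49 (13 and 36), P18 alone 0 (0 and 0) and equal weight per cell 51 (37 and 14). FACS-sorted batches alone gave 29 higher and 8 lower, hand-picked batches 234 (224 and 10), with the median of all genes shifted by 0.152 on the log2 scale, and the fit with α-cell batches 14 higher and 11 lower. With a replicate block 10 genes were called (5 higher, 5 lower), all among the 28. Of the 28, also called were 1 with the 11 batches alone, 3 with FACS-sorted and 10 with hand-picked batches, 11 with equal weight, 14 with α-cell batches, 21 against P15 and 26 without a filter. Same-numbered batches had correlations of -0.017 to 0.107 over 9 pairs (median 0.039), and batches of different number -0.146 to 0.089 over 30 pairs (median -0.0086). Whether batch numbers pair the samples was not tested. Leaving out each batch gave 12 to 29 calls, 5 to 9 higher and 7 to 20 lower, with the fewest without batch 4 of P60 (12) and batch 5 of P60 (16), 5 higher without batch 1 of P18 and 11 lower without batch 2 of P18. Nupr1, Hspb8, Slc7a5, Meis3, Tgoln1, Dnmt3a, Pak3, Txn1, Hmgn1, H3f3a, Nrep and 2610524H06Rik were called in all 11 of these fits. The β-minus-α difference was called for 6 genes without a filter and for 0 to 1 when a β-cell batch was left out. P18 against P15 gave 29 calls without a filter and 0 to 2 when a batch was left out. The bulk contrast gave 2122 calls without a filter and 105 to 1078 when a library was left out, with 555 and 452 without library 1 or 2 of P18 and 237 and 105 without library 1 or 2 of P60. The cause of these differences was not tested.

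The signs that turned were all of genes that were not called. They were Rbp4 (-0.027) with the 11 batches alone, Ins1 (0.0063) with the α-cell batches, Npy (-0.44) against P15, and Rbp4 (-0.13) and Gcg (-0.66) with equal weight. FACS-sorted batches gave 0.18 for Ins1, -0.070 for Slc2a2 and -4.77 for Gcg, and hand-picked batches 0.072 for Ucn3, 2.61 for Mki67, 1.99 for Cd24a, 2.35 for Kif11 and 3.69 for Mcm3. Against P18 the values were -0.74 for Rbp4, 1.57 for Mki67, 0.16 for Cdk1, 0.61 for Kif11, -0.32 for Pdyn and 0.91 for Ube2c. The replicate block gave 0.018 for Ins1 and 0.023 for Ucn3. With each batch left out in turn, the log2 difference ranged from -0.096 to 0.066 for Ins1, from -0.12 to 0.13 for Ucn3 and from -0.16 to 0.89 for Rbp4. That of Npy ranged from -1.96 to 2.41 and that of Gcg from -4.11 to 2.40, both lowest without batch 3 of P60. Genes with few or no reads in 1 group (Nupr1, Rasd2, Fbxw24, Kcnf1, Mmp23) have no well-bounded fold at this depth.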
